A study of Mus musculus with 8 samples.

Results

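The genes described here are Zbp1 and 6 further genes of the necroptosis pathway: the kinases Ripk1 and Ripk3, the pore-forming pseudokinase Mlkl, the protease Casp8, its catalytically inactive relative Cflar and the adaptor Fadd. Members were all probes, control spots left out, whose gene name in the scanner output equals one of these 7 symbols. That gave 14 probes, of 56605 on the array. All 14 were well above background on all 8 arrays, so each of the 7 genes was among the 22509 genes measured. The genes were selected on the measured difference between LPS and saline in these same samples, so that difference is described for the 7 genes and not tested.

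LPS samples came from male C57BL/6N mice, 7 days old, 24 h after lipopolysaccharide (LPS), a bacterial cell wall glycolipid that Tlr4 detects. Saline samples came from male mice of the same strain and age, 24 h after saline. Each group held 4 tubes, each tube held the dissociated brains of 2 mice, and magnetic beads drew from it the cells that carry CD11b, an integrin of microglia and other myeloid cells. RNA of each tube was hybridised to 1 array. The dose and the route of LPS are not given in the sources used here, and pooling hides differences between mice within a tube.

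Necroptosis is a form of lytic cell death. Zbp1 binds left-handed (Z-form) RNA and DNA, and Ripk1 relays signals from death receptors. Both meet Ripk3 through a shared motif, the RHIM. Ripk3 then phosphorylates Mlkl, which inserts into the plasma membrane and breaks it. Casp8, recruited by Fadd and held in check or partly activated by Cflar, cleaves Ripk1 and Ripk3 and so opposes this route, and fully active Casp8 starts apoptosis instead. Zbp1 and Mlkl are known interferon-inducible genes. The comparison asks how RNA of these genes stood in brain CD11b+ cells of young mice one day after LPS.

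Zbp1, Ripk1 and Cflar were each read by several probes, aimed at different transcripts. They are shown because results below compare the probes of a gene with each other. Each probe is 60 bases long, and the first 30 bases are printed 5′ to 3′ as the scanner files give them, in lower case throughout because no part of them is singled out. Positions are in the build named in the file headers, mm9.
Zbp1, variant 2, chr2:173039307-173039366, minus strand: caagctggtcttgaacccacagagatcttc
Zbp1, variant 1, chr2:173032258-173032317, minus strand: acagatgtgacatgaaagtacatgtaacac
Ripk1, variant 2, chr13:34126830-34126889, plus strand: tcagacctgagtgtcattgtccacatcatg
Ripk1, variant 1, chr13:34125152-34125211, plus strand: ttgagcatccaatgctgtactgtcacctta
Ripk1, an Ensembl transcript, chr13:34106391-34106450, plus strand: tttctctccatcctgtcttctcttaggttc
Cflar, variant 1 (downstream), chr1:58815653-58815712, plus strand: gcttgctgagattctaggcataattgctct
Cflar, variant 1 (upstream), chr1:58811116-58811175, plus strand: gatttgacactgaatgtaacttgagactta
Cflar, variant 2, chr1:58789994-58790053, plus strand: ctttcttgctgatgtataaattgcctcctt
Cflar, variant 6, chr1:58783552-58788030, plus strand: accctcacctggtttctgattatagagttt
Cflar, variant 10, chr1:58770546-58770605, plus strand: gggacttgggaagttggagagctgactcct

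The position of the variant 6 probe spans 4479 bases, so its 60 bases lie on both sides of a gap in the genome, and the variant 10 transcript is annotated as non-coding. The downstream probe of Cflar, the variant 2 probe of Zbp1 and the variant 2 probe of Ripk1 had the highest mean signal of their gene and stood for it. The files list 4 accessions beside each probe, and a variant number names the transcript given first. Whether the 4 are different transcripts was not checked, so a probe may bind more than the transcript it is named for. Ripk3 at chr14:56403949-56404008, Mlkl at chr8:113835897-113835956, Casp8 at chr1:58901601-58901660 and Fadd at chr7:151764228-151764267 had 1 probe each. The position given for the Fadd probe spans 40 bases, fewer than the 60 of the probe. Whether a probe lies in coding or untranslated sequence was not analysed here.

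The share of probes well above background was 58.6% to 63.2% after LPS, against 61.9% to 66.0% after saline. Precision is limited by the number of arrays. All 8 markers of microglia were well above background on every array, among them Itgam, the gene of CD11b. Their summed level was 1506 to 1803 times the 75th percentile signal of the array after LPS, against 1390 to 1692 times after saline. All arrays came from 1 slide, in 2 rows that each held 2 arrays of either group and 4 columns that each held 1 array of either group. LPS replicate 3 stood lowest of the LPS arrays in 48.4% of all genes and saline replicate 3 lowest of the saline arrays in 43.4%, and these 2 arrays shared a slide column. Values without LPS replicate 3 are given where they move a result. Levels below are log2 processed signal minus the 75th percentile of that array. Differences are log2 LPS minus saline with the standard error of limma's fit, with n = 4 arrays per group.

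Zbp1, the nucleic acid sensor, was far higher after LPS. At the variant 2 probe its log2 level was 3.24, 3.21, 2.50 and 3.45 on the LPS arrays, against -0.81, -0.69, -1.42 and -0.97 on the saline arrays. The groups lay far apart, with LPS replicate 3 lowest of the LPS arrays and saline replicate 3 lowest of the saline arrays. The difference was 4.07 ± 0.23, which is a 16.8-fold higher signal (14.3 to 19.7-fold at 1 standard error either side), and 18th in size among increases over 22509 genes. It was 3.39 with normexp background correction, which adds an offset of 50 to every signal.

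The variant 1 probe of Zbp1 gave log2 levels of 1.58, 1.80, 1.13 and 1.97 after LPS, against -2.64, -2.17, -2.21 and -2.44 after saline. Here too the groups did not meet, and the difference was 3.99 ± 0.19. With normexp and an offset of 50 it was 2.695. The processed signal of this probe on the saline arrays, 27.0 to 43.7, was smaller than that offset. Within an array the variant 2 probe stood 1.37 to 1.66 log2 units above the variant 1 probe after LPS, and 0.79 to 1.83 after saline. Those ranges overlap, and the means differed by 0.08, or by 0.69 with normexp and an offset of 50.

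Mlkl, the executor that permeabilises the membrane, was higher as well. Its log2 level was -0.38, -0.31, -0.84 and -0.06 on the LPS arrays, against -2.10, -1.94, -2.36 and -2.12 on the saline arrays. Every LPS array stood above every saline array. The difference was 1.73 ± 0.17, a 3.32-fold higher signal, and it was 1.005 with normexp and an offset of 50, where the processed signal of 39.3 to 44.0 on the saline arrays was smaller than the offset. Mlkl was dim in both groups, at 100.2 to 154.8 signal units after LPS.

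Ripk3, the kinase that phosphorylates Mlkl, differed less. Its log2 level was 3.08, 3.12, 2.69 and 3.16 after LPS, against 2.33, 2.27, 2.06 and 2.15 after saline. The groups did not overlap, and LPS replicate 3 stood apart from the other LPS arrays. The difference was 0.81 ± 0.12, a 1.75-fold higher signal, and 0.92 without LPS replicate 3.

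Ripk1, the RHIM kinase of the TNF receptor complex, showed no difference beyond the replicate spread at the probe that stands for it. The variant 2 probe read 2.01, 1.90, 1.76 and 1.89 after LPS, against 1.89, 1.96, 1.78 and 1.78 after saline. The groups lay on top of each other, with a difference of 0.04 ± 0.08. The variant 1 probe gave 1.31, 1.38, 1.06 and 1.43 after LPS, against 1.07, 1.10, 0.94 and 0.98 after saline, a difference of 0.27 ± 0.10 in groups that just overlap. It was 0.49 with arrays scaled to their median, and 0.12 with the percentile of always-bright probes (well above background on each of the 8 arrays).

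The probe of the Ensembl transcript, which lies farthest upstream of the Ripk1 probes, went the other way. It read -1.88, -1.80, -1.87 and -2.04 after LPS, against -1.70, -1.37, -1.24 and -1.44 after saline. Every LPS array stood below every saline array, and the difference was -0.46 ± 0.11, or -0.24 with arrays scaled to their median and -0.18 with normexp and an offset of 50. Set against the variant 1 probe on the same array, it was -3.47 to -2.93 after LPS and -2.77 to -2.18 after saline, so the pair was lower on every LPS array than on any saline array. The processed signal of this probe was 39.3 to 49.2 after LPS and 51.9 to 85.4 after saline.

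**Figure D1:**
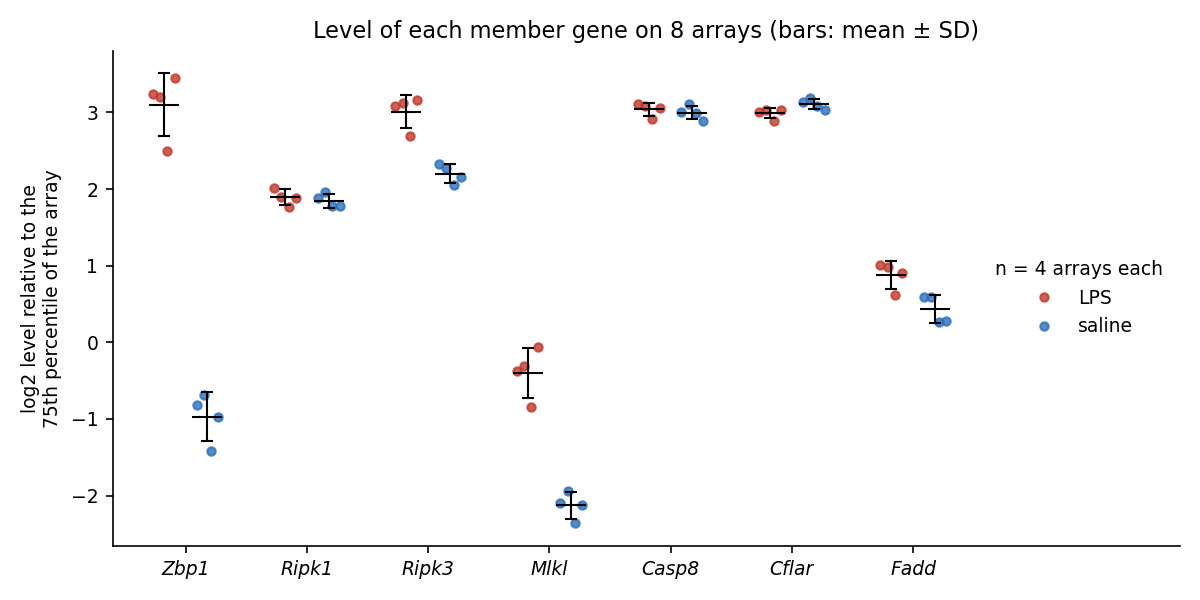
Log2 level of each of the 7 genes relative to the 75th percentile of its array, at the probe with the highest mean signal, for the 4 LPS arrays (red, left) and the 4 saline arrays (blue, right), with mean and SD as bars. Zbp1, Mlkl, Ripk3 and Fadd have groups that do not overlap, while Ripk1, Casp8 and Cflar have groups that do; heights of different genes cannot be compared, because each probe binds with its own strength.

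Fadd, the adaptor that joins death receptors to Casp8, was slightly higher. Its log2 level was 1.01, 0.98, 0.62 and 0.91 after LPS, against 0.59, 0.59, 0.27 and 0.28 after saline. The lowest LPS array stood just above the highest saline arrays, so the groups only just separated. The difference was 0.45 ± 0.12, a 1.36-fold higher signal.

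Casp8, the protease that restrains necroptosis, read 3.12, 3.08, 2.92 and 3.05 after LPS, against 3.01, 3.10, 2.99 and 2.90 after saline. The groups overlapped over most of their range, with a difference of 0.04 ± 0.08. Its SD was 0.09 in both groups.

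Cflar, which pairs with Casp8 and sets how far it is activated, differed by probe. The downstream variant 1 probe read 3.01, 3.04, 2.89 and 3.03 after LPS, against 3.13, 3.19, 3.09 and 3.03 after saline, a difference of -0.12 ± 0.07. The upstream variant 1 probe ranged from 0.78 to 0.84 after LPS and from 0.84 to 0.98 after saline, a difference of -0.10 ± 0.07. Both variant 1 probes thus stood slightly lower after LPS in groups that touch.

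The variant 2 probe of Cflar read 2.06, 1.98, 1.84 and 2.02 after LPS, against 1.71, 1.89, 1.67 and 1.64 after saline. The lowest LPS array fell within the saline range, and the difference was 0.25 ± 0.09. The variant 6 probe differed by 0.10 ± 0.10 and the variant 10 probe by 0.10 ± 0.08, both in overlapping groups. No probe of Cflar separated the groups by itself. The differences also moved with the scaling: variant 2 was at 0.46 with the array median, 0.09 with the percentile of always-bright probes and 0.10 with quantile normalization. In the second of these settings the variant 6 and variant 10 probes were at -0.06 and -0.05.

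The balance between the variant 2 probe and either variant 1 probe of Cflar on the same array did separate the groups. Set against the variant 6 or the variant 10 probe, the variant 2 probe gave groups that overlap. Variant 2 minus downstream variant 1 was -0.94, -1.06, -1.06 and -1.01 after LPS, against -1.42, -1.30, -1.42 and -1.39 after saline. Variant 2 minus upstream variant 1 was 1.28, 1.15, 1.05 and 1.18 after LPS, against 0.88, 0.93, 0.82 and 0.66 after saline. In both pairs every LPS array stood above every saline array, by 0.36 and 0.34 in the means. Upstream minus downstream variant 1, 2 probes named for the same transcript, was -2.22 to -2.10 after LPS and -2.29 to -2.05 after saline, in ranges that overlap.

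A factor common to all spots of an array cancels in these pairs, so scaling to another percentile or to the median leaves them as they are. With quantile normalization the 2 differences were 0.42 and 0.27, and with normexp and an offset of 50 they were 0.36 and 0.30. The Ripk1 pairs with the probe of the Ensembl transcript moved more. Against variant 1 the difference of -0.73 was -0.52 with quantile normalization and -0.39 with normexp and an offset of 50, and against variant 2 the difference of -0.50 was -0.23 and -0.18 in these same settings. For Ripk1, variant 1 minus variant 2 was -0.70, -0.52, -0.70 and -0.46 after LPS, against -0.81, -0.87, -0.83 and -0.80 after saline, again without overlap. The pairs were picked after their values were seen and were not tested. Cflar is known to encode long and short proteins, and the variant numbers were not tied to them here.

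**Figure D2:**
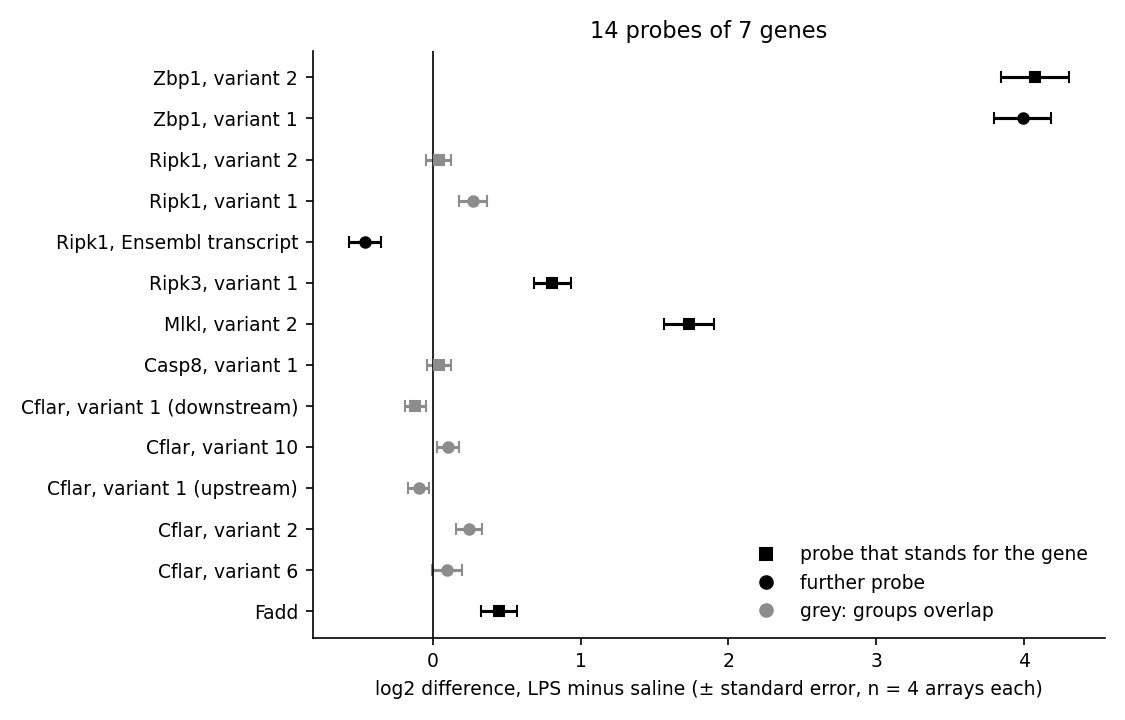
Log2 difference, LPS minus saline, with its standard error for each of the 14 probes (n = 4 arrays per group); squares are the probes that stand for a gene, and grey marks groups that overlap. Both Zbp1 probes lie near 4, Mlkl at 1.73 and Ripk3 at 0.81, the Ripk1 probe of the Ensembl transcript lies at -0.46, and the Cflar probes lie between -0.12 and 0.25.

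**Figure D3:**
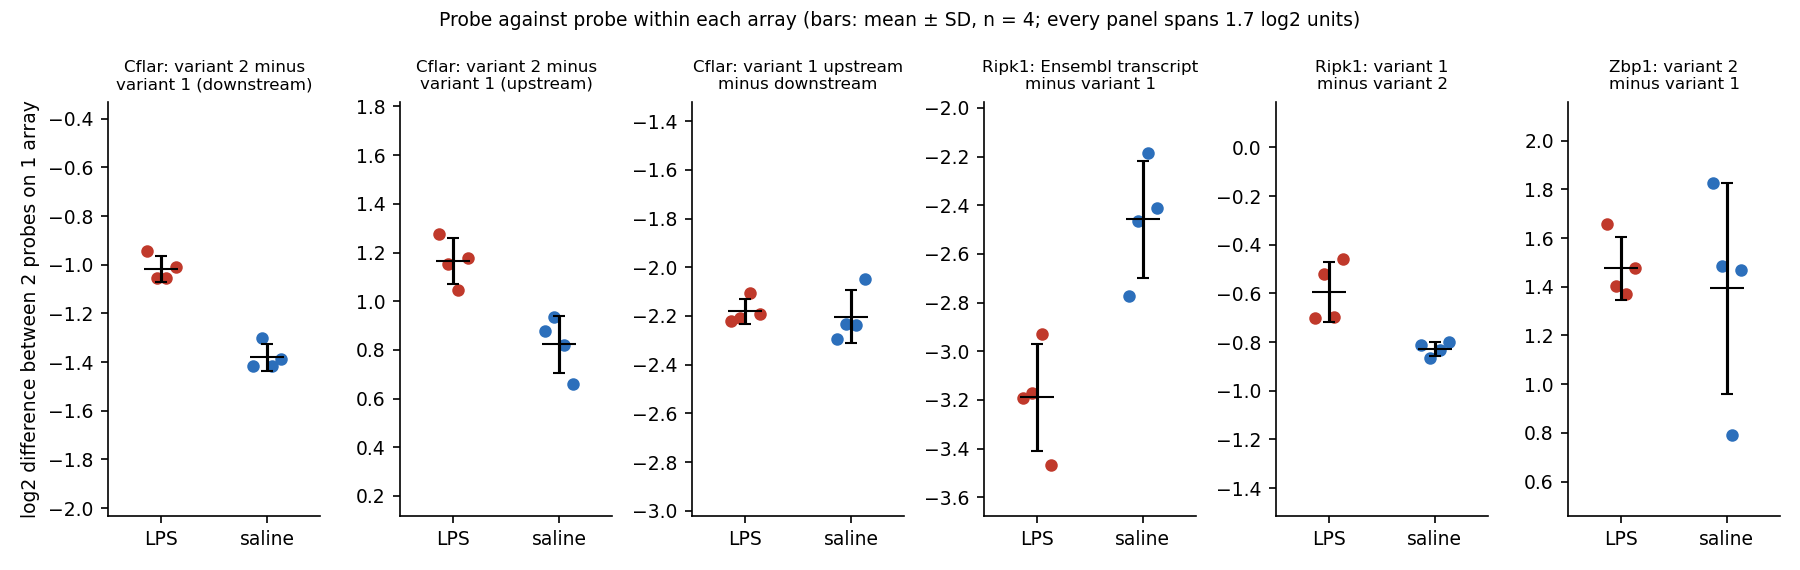
Log2 difference between 2 probes of the same gene on the same array, for LPS (red, left) and saline (blue, right), with mean and SD; all panels span the same number of log2 units around their own centre. The 2 pairs of variant 2 against variant 1 of Cflar and the Ripk1 pairs separate the groups in this scaling (the Ripk1 pair with the Ensembl transcript differs by -0.73, or -0.39 with normexp and an offset of 50), and the Zbp1 pair and the pair of variant 1 probes of Cflar overlap.

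Counted with limma over all genes, 4 of the 7 members passed an adjusted p of 0.05 (Zbp1, Mlkl, Ripk3 and Fadd), all higher, and 0 were lower. Fadd no longer passed without LPS replicate 2 or without saline replicate 4, which left 3. The same threshold was passed by 49.3% of all genes, by 27.8% in the direction of higher and by 21.5% in that of lower, so nothing is read from the count. Groups did not overlap in 4 of 7 members, all higher, and in 44.7% of all genes, 25.8% higher. Over probes, 8 of 14 passed, 7 higher and 1 lower, against 47.5% of all probes (25.7% higher and 21.8% lower). Groups did not overlap in 6 of 14 probes, 5 higher and 1 lower, against 43.3% of all probes (24% higher and 19.3% lower). The median difference of the 7 members was 0.45, beside 0.02 over all genes. Nothing is read from this either, because the members were selected on that difference.

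The sign of the 3 smallest differences depended on how arrays were set to each other. The median difference of all genes was 0.02 after scaling to the 75th percentile, 0.24 after scaling to the array median and -0.13 when that percentile was taken over always-bright probes. In those same settings Ripk1 was 0.04, 0.26 and -0.11, Casp8 was 0.04, 0.26 and -0.11, and Cflar was -0.12, 0.10 and -0.27. These 3 scalings shift all genes by 1 amount, so values relative to the median of all genes are the same in each by construction: 0.02 for Ripk1, 0.02 for Casp8, -0.14 for Cflar, 0.42 for Fadd, 0.79 for Ripk3, 1.71 for Mlkl and 4.05 for Zbp1. Quantile normalization is no such shift, and there Ripk1 was at -0.10, Casp8 at -0.17 and Cflar at -0.32 relative to that median. Zbp1, Mlkl, Ripk3 and Fadd were higher after LPS in every scaling and background setting run.

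**Figure D4:**
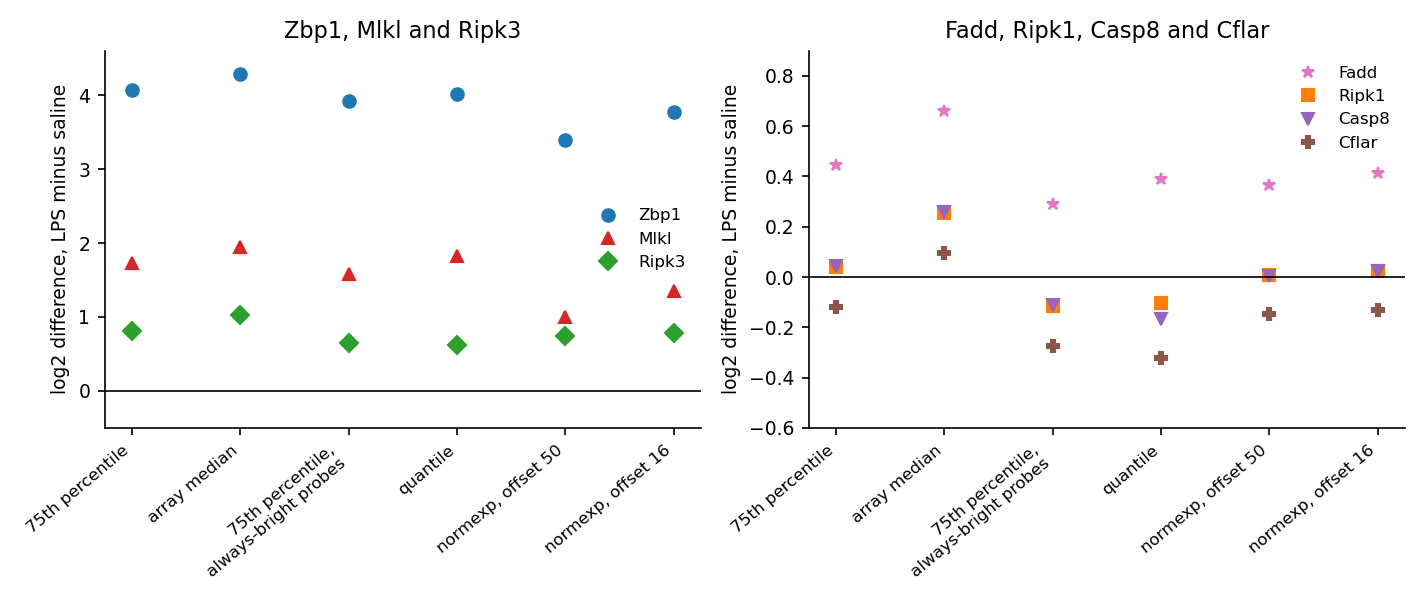
Log2 difference, LPS minus saline, of the 7 genes under 6 scaling and background settings, with Zbp1, Mlkl and Ripk3 on the left and the 4 genes with smaller differences on a finer axis on the right. Ripk1, Casp8 and Cflar change sign between scalings, and normexp with an offset of 50 gives the smallest differences for Zbp1 (3.39) and Mlkl (1.005).

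Arrays that were low for one member were often low for others. LPS replicate 3 was the lowest LPS array in all 7 genes and in 11 of 14 probes. Among the saline arrays, replicate 3 was lowest in 4 genes and replicate 4 in 3, and replicate 2 was highest in 5. The array's 75th percentile signal was 179.2 on LPS replicate 3, against 154.4 to 161.4 on the other LPS arrays, and 201.9 on saline replicate 3, against 168.6 to 179.5 on the other saline arrays. The within-group SD was 0.37 for Zbp1 and 0.26 for Mlkl, against a median of 0.17 over all genes, and 0.07 to 0.18 for the other 5 members. The part of the array signal in the spread of the members was not tested.

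Markers of other cell types moved both ways, counted with arrays scaled to the 75th percentile. Of 8 neutrophil markers 3 rose (S100a8 by 1.59 ± 0.29, S100a9 by 1.38 ± 0.29 and Cxcr2 by 1.10 ± 0.21), 0 fell and 7 were well above background on all arrays. The other 5 did not pass the test: Ly6g was at 0.55 ± 0.42, and Retnlg (-0.07 ± 0.36), Ltf (-0.14 ± 0.48), Elane (-0.12 ± 0.15) and Mpo (-0.54 ± 0.50) lay below 0. Their summed level, which follows mostly S100a9 and S100a8, was 168 to 296 times the 75th percentile signal after LPS, against 68.1 to 160 times after saline. Of 6 monocyte markers 4 rose, led by Ly6c2 (2.11 ± 0.20) and Plac8 (2.06 ± 0.17), while Vcan (-0.13 ± 0.09) and F13a1 (-0.05 ± 0.13) did not pass. The sum of the 6 was 110 to 160 after LPS, against 79.2 to 107 after saline. That sum follows mostly F13a1, which is also counted among the border macrophage markers. Of 7 markers of T and NK cells 4 were measured, with 1 higher and 1 lower and a sum of 2.19 to 2.66 after LPS, against 1.23 to 2.14 after saline. Of 4 B cell markers 3 rose and 0 fell, but 1 of the 3, Ms4a1 (1.09 ± 0.17), had a second probe at -0.35. The sum was 18.1 to 21.5 after LPS, against 14.6 to 20.8 after saline. It follows mostly Cd79b (0.12 ± 0.12), which did not pass.

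Markers of several brain and border cell types were lower. All 4 fibroblast markers fell (median -1.56), with a sum of 7.95 to 16.3 after LPS, against 22.2 to 34.8 after saline. Of 5 markers of border macrophages 3 fell and 0 rose, among them Mrc1 (-0.78 ± 0.10) and Lyve1 (-0.95 ± 0.15), with a sum of 254 to 310 after LPS, against 391 to 511 after saline. In the lists of astrocytes, of the oligodendrocyte lineage and of endothelial and mural cells, 5 of 6 markers fell and 0 rose in each, and 2 of 2 measured erythroid markers fell. Of 5 measured neuron markers 1 rose and 1 fell, and of 4 choroid plexus markers 0 passed the test. Of the 8 microglia markers 2 rose (Itgam and Aif1) and 2 fell (P2ry12 and Sall1). The part of these cell types in the levels of the 7 genes was not tested, and in sorted bulk samples a change in the number of cells of a type and a change in RNA per cell cannot be told apart.

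Genes with profiles nearest to that of Zbp1 were found by the root mean square difference over the 8 arrays, with each gene set to its own saline mean. The nearest was Cfb, complement factor B, at a distance of 0.20 log2 units, nearer than the second Zbp1 probe (0.28). Next came the serpin Serpina3g (0.27), Oasl1 of the oligoadenylate synthetase family (0.33), the formyl peptide receptor Fpr1 (0.34), the surface protein Cd72 (0.34) and the Schlafen gene Slfn1 (0.36). No saline array had Slfn1 well above background, so its distance rests on values near the background. The measure takes the size of the difference into account, and these genes differed by 3.65 (Fpr1) to 4.47 (Cd72).

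The other genes of the pathway were grouped in 6 lists, of which 92 of 93 genes were measured. In all 50 of 92 rose and 3 fell, beside 27.8% higher and 21.5% lower over all genes, and their median difference was 0.30, beside 0.02. The lists were written with earlier results of these samples known, and the counts move with the scaling: 54 rose and 1 fell with the array median, and 44 rose and 19 fell with the percentile of always-bright probes. Over all genes the share of calls that were higher was 56.4%, 72.8% and 40.1% in these same 3 settings.

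The list of nucleic acid sensing, Toll-like receptor and interferon input held the RHIM adaptor gene Ticam1 and genes of the interferon receptor pathway. Of 15 measured 10 rose and 0 fell, with a median of 0.63. The RNA-activated kinase gene Eif2ak2 rose by 1.32 ± 0.12 (adjusted p = 0.000353) and Stat2 by 1.05 ± 0.14 (adjusted p = 0.00118), with 0.71 at the other Stat2 probe. The receptor genes Tlr3 (0.76 ± 0.09) and Tlr4 (0.68 ± 0.17) were among the risen, though the lowest of 3 Tlr4 probes was at 0.18. Adar, which edits double-stranded RNA and restrains Zbp1 (0.70 ± 0.08), rose too, while Ticam1 was -0.17 ± 0.08 and did not pass. Of the interferon receptor genes Ifnar2 (0.40 ± 0.08) and Ifngr2 (0.63 ± 0.13) rose. Ifnar1 (-0.14 ± 0.07, with its highest probe at 0.57) and Ifngr1 (0.20 ± 0.10) did not pass. Neither did the receptor kinase genes Jak1 (0.30 ± 0.11) and Tyk2 (0.15 ± 0.06).

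Ligands and receptors that engage Fadd or Ripk1 moved both ways. Of 7 measured 3 rose and 2 fell, with a median of 0.53, and Fasl was not well above background on enough arrays. Tnfsf10, the ligand TRAIL, rose by 1.20 ± 0.14 (adjusted p = 0.000849), with 0.39 at its other probe. The death receptor gene Fas rose by 0.92 ± 0.14 and Tnf by 0.85 ± 0.14. Tnfrsf25, another death receptor gene, fell by 1.19 ± 0.13 (adjusted p = 0.000708). Tnfrsf21 was called lower at -0.27 ± 0.08, but its second probe was at 0.06, and the call ended when scaled to each array's median (-0.06).

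In the TNF receptor complex, which ubiquitinates and phosphorylates Ripk1, 10 of 22 measured genes rose and 0 fell, with a median of 0.24. The kinase gene Ikbke rose by 3.29 ± 0.20 (adjusted p = 9.9e-05), with 1.65 at its other probe. Tnip1, a ubiquitin-binding inhibitor, rose by 0.71 ± 0.11, with 0.40 at its other probe, and Rnf31, the catalytic subunit of the linear ubiquitin ligase, by 0.69 ± 0.10. Its partners Sharpin (0.50 ± 0.10) and Rbck1 (0.30 ± 0.09) rose too. The kinase genes Tbk1 (-0.08 ± 0.08) and Chuk (0.15 ± 0.06) and the deubiquitinase gene Cyld (-0.08 ± 0.08) did not pass the test. The count was 6 without LPS replicate 4, and with quantile normalization 6 rose and 4 fell.

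Among factors that act on Ripk3 or Mlkl or repair the membrane, 11 of 21 measured genes rose and 0 fell, with a median of 0.27. Chmp4b, an ESCRT subunit of the kind that sheds damaged membrane, rose by 1.38 ± 0.30 (adjusted p = 0.00642), with 0.45 at its other probe. The mitotic kinase gene Aurka rose by 1.03 ± 0.15 and the chaperone partner Cdc37 by 0.61 ± 0.13. Of the other ESCRT genes Chmp2a rose (0.46 ± 0.10), whereas Chmp2b (-0.18 ± 0.08), Vps4a (0.24 ± 0.11) and Vps4b (0.04 ± 0.08) did not pass.

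Of the listed genes that execute or restrain apoptosis, 8 of 15 measured rose and 0 fell, with a median of 0.31. Cycs, the gene of cytochrome c, rose by 1.21 ± 0.13 (adjusted p = 0.000645), with 0.82 at its other probe, and the mitochondrial pore gene Bak1 by 1.01 ± 0.13. Casp6 was at -0.13 ± 0.07 and Bid, a substrate of Casp8, at -0.18 ± 0.08, and neither passed.

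Of the pyroptosis genes, which form the other lytic route that Zbp1 is known to reach, 8 of 12 measured rose and 1 fell, with a median of 0.56. Mefv, the gene of pyrin, rose by 2.59 ± 0.20 (adjusted p = 0.000184), with 1.63 at its other probe, and Il1b by 1.80 ± 0.16 (adjusted p = 0.00032). Pycard, the inflammasome adaptor, rose by 1.19 ± 0.19 at the probe of highest signal, but its other probe was at -0.84, and the mean of both was 0.18 and not past the test. Casp1 (0.67 ± 0.12) and Gsdmd, the gasdermin it cleaves (0.51 ± 0.11), rose. Ninj1, whose product ruptures the membrane late in lytic death, was called lower at -0.26 ± 0.09 (adjusted p = 0.0427), and the call ended in 9 other settings, 6 of which left out an array.

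**Figure D5:**
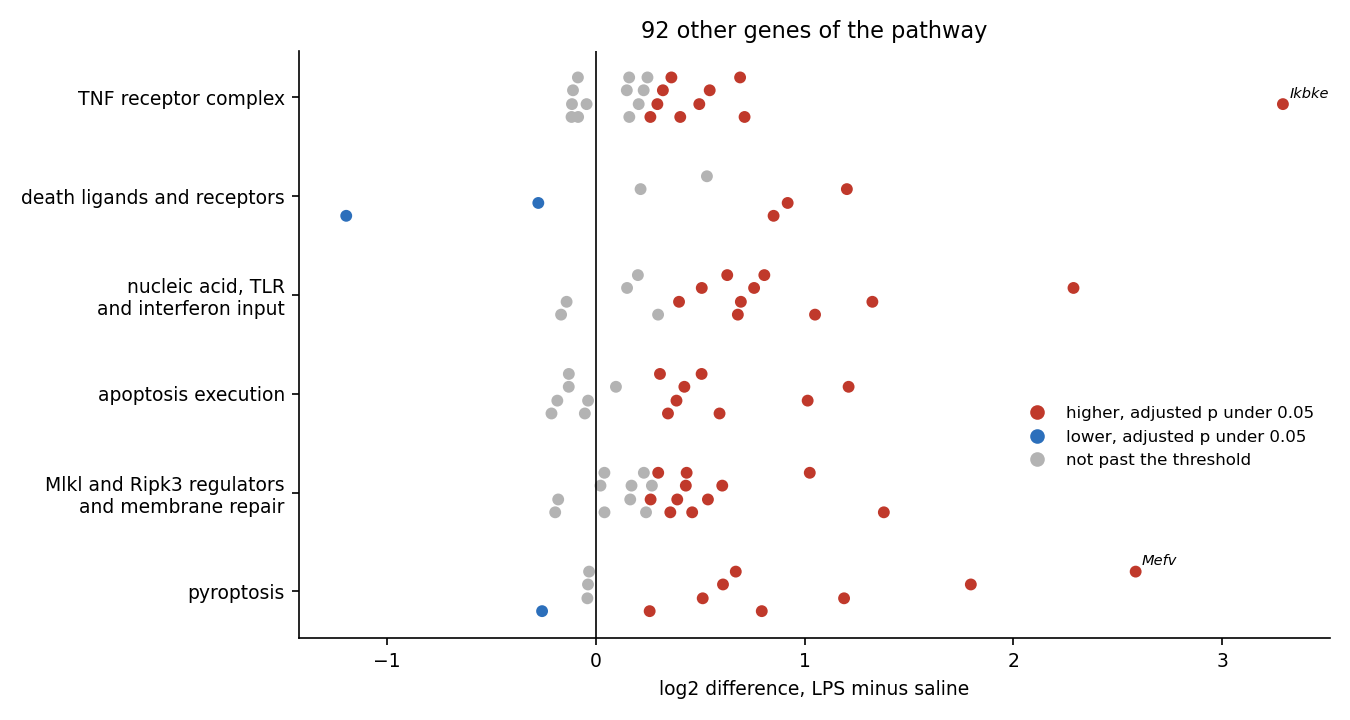
Log2 difference, LPS minus saline, for 92 other genes of the pathway in 6 lists, with genes past an adjusted p of 0.05 in red (higher) and blue (lower), the rest in grey, and names for the 2 genes with the largest differences. Most genes lie between -0.3 and 1, and Ikbke and Mefv lie farthest to the right.

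Promoters from RefSeq (GRCm38.p6), 250 bases before to 50 bases after a gene's start, were searched on both strands for the interferon-stimulated response element (GAAA and again GAAA, with any 2 bases between them), the gamma-activated site TTCNNNGAA and the kappa B motif (GGGA and TTTCC, with any 1 base between them). The table held 7 promoters of 6 members. Zbp1 was not in it. Over 32851 promoters the first motif was present in 3.44%, the second in 8.30% and the third in 0.411%. One of the 2 Ripk1 promoters held the first motif across its start, from -5 to 5, and the second from -108 to -100 and from -11 to -3, so that the last 2 matches overlap. Cflar held the first motif from 7 to 16, as TTTCGGTTTC on the plus strand, and the promoters of Ripk3, Mlkl, Casp8 and Fadd held none of the 3 as spelled. The Ripk1 stretch is shown because it carries 2 of the motifs, from 120 bases before to 10 bases after the start on the plus strand, with the matches in capitals.
Ripk1, chr13:34002754-34002883, plus strand: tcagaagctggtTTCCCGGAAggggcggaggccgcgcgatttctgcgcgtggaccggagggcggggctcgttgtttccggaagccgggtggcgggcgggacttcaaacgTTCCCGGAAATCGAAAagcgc
At the probes that stand for them, Ripk1 and Cflar, with a match, differed by 0.04 ± 0.08 and -0.12 ± 0.07. Mlkl, Ripk3, Fadd and Casp8, without a match in this window, differed by 1.73, 0.81, 0.45 and 0.04. Whether the motifs bear on these differences was not tested.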

How the data were processed

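Per the labels, Cy3-labelled cRNA was made from 50 ng of total RNA per tube. Spots were read with Agilent Feature Extraction 12.0.3.1, per the file headers and the submitters' processing notes. Intensity in the deposited scanner output is, per the file headers, background-subtracted by spatial detrending, with surrogates for spots below background. Arrays were not scaled to each other there. A further table deposited by the authors is on a log2 scale. Set against the scanner values, it is scaled to the 75th percentile per array, then centred on the median per probe (column medians -0.07 to 0.08); these steps are inferred from the values.

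Control and outlier spots were left out, spots of a probe averaged, and log2 processed signal set to each array's 75th percentile. Of 56605 probes, 6 lacked a usable spot on some array, and no spot was saturated. Genes were named through RefSeq accession (35402 probes), symbol (9123) or synonym (25), and 12049 probes kept the file's name. Kept were 35494 probes, those well above background on 4 or more of 8 arrays, with the brightest probe per gene (22509). The comparison used limma 3.58.1 (lmFit, then eBayes; R 4.3.3), and p-values were adjusted by Benjamini-Hochberg over all genes at a threshold of 0.05, and the fit was tested on simulated data. Named were all members, up to 3 genes per list and direction with the largest difference, and the 6 profiles nearest to Zbp1; further list genes were added after their values were seen. Some genes that this rule names are not reported here. The members and lists were chosen with earlier results of these data known. The labels give no replicate numbers, so replicates are numbered in order within a group and pair nothing. Tubes were separate pools. Plots used matplotlib 3.10.9 (Python 3.11.15).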

Additional observations from a re-analysis of the deposited data

Results flagged for a closer look

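In 28 groups of 4 arrays (14 probes, LPS and saline) a single array stood far from the other 3 in 2, and chance gives about 1 in 20. LPS replicate 3 was low for Ripk3, at a log2 level of 2.69 with the next LPS array at 3.08, and the difference between LPS and saline was 0.92 without it, against 0.81 with it. Saline replicate 3 was low for the variant 10 probe of Cflar, at 0.98 with the next saline array at 1.14.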

How the results depend on the processing

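Zbp1 was 3.92 to 4.27 when each array was left out in turn, 4.44 within the first slide row, 3.70 within the second and 3.39 with normexp and an offset of 50. Mlkl was 2.04 and 1.42 within the 2 rows, and 1.36 with an offset of 16. Leaving out each array gave 3 to 4 members higher (without LPS replicate 2 or saline replicate 4 Fadd was lost) and 0 lower. Members counted as lower were 1 (Cflar) with the percentile of always-bright probes and 2 (Casp8 and Cflar) with quantile normalization. With normexp and an offset of 50 the count was 1 (Cflar). Over all genes 8730 to 13262 passed with an array left out, and 2619 were lower when scaled to the median, against 4837.

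Of pathway genes, 1 was lower when scaled to the median, 19 with the percentile of always-bright probes and 18 with quantile normalization. The lower count was 7 with normexp and an offset of 50 and 6 with array weights. With an array left out it was 1 to 5 (1 without saline replicate 2 or LPS replicate 2, and 5 without saline replicate 3). For the TNF receptor complex 6 rose with quantile normalization, 16 with array weights and 6 to 14 with an array left out. In that list 6 fell with the percentile of always-bright probes and 4 with quantile normalization. For death ligands and receptors 5 rose when scaled to the median, and 1 fell in that setting and as the mean of probes (1 to 2 with an array left out). Lower counts follow for the percentile of always-bright probes, for quantile normalization and for normexp with an offset of 50, in that order. They were 2, 3 and 1 for sensing and interferon input, 6, 3 and 2 for apoptosis, and 2, 4 and 1 for Mlkl and Ripk3 regulators. With array weights they were 1 for apoptosis and 2 for Mlkl and Ripk3 regulators, which had 0 to 2 with an array left out. For pyroptosis the lower count was 2 with quantile normalization, 0 to 1 with an array left out, and 0 when scaled to the median, with no filter and with slide row as a block. The causes were not tested. The labels give no replicate numbers that could pair tubes. Each slide column held 1 LPS and 1 saline array, and with slide column as a block, which pairs arrays by position, 13620 genes passed, against 11104 without it. In that fit 4 members were higher and 0 lower, and 58 pathway genes were higher, 13 of them in the TNF receptor complex and 14 among Mlkl and Ripk3 regulators, against 50, 10 and 11 without it.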
